A study of Mus musculus with 4 samples.

Results

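The genes described here are 10 direct targets and feedback regulators of the Wnt/β-catenin pathway, *Axin2*, *Nkd1*, *Notum*, *Sp5*, *Lgr5*, *Rnf43*, *Znrf3*, *Dkk1*, *Apcdd1*, and *Wif1*. They were chosen by name, with earlier results of these data known, and are 10 of the 27612 genes listed in any of the tables. All 10 were listed in the tables of all reads of 3 lines, whereas the smaller normalized tables listed 9 of them in CN4, 6 in KN1, 6 in XN1, and 7 in XN4. The lines are mouse neural stem cell (NSC) lines derived from epiblast stem cells (EpiSCs, strain 129/Sv), and all 4 were grown with EGF and FGF2, each at 10 ng/ml. The lines differed in the drug that acts on Wnt signaling. XN4 and XN1 received 10 µM XAV939, which inhibits tankyrase and so stabilizes Axin, KN1 received no such drug, and CN4 received 2 µM CHIR99021, which inhibits the kinase GSK3 and so stabilizes β-catenin. The XAV939 came from supplier B for XN4 and from supplier A for XN1, where crystals formed in the medium. XN1 and KN1 came from derivation experiment 1, and XN4 and CN4 from derivation experiment 4, so that drug and experiment are partly confounded. Each line is a single derivation, and 1 BD Rhapsody single-cell library was sequenced per line. The lines therefore had no replicate error, and no test between them was possible. The 95% intervals below hold no error between derivations or libraries, and at most the error of counting. Several reads can stem from 1 molecule, so the intervals of summed reads, which take each read as independent, are too narrow.

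When Wnt ligands bind their Frizzled and LRP receptors, the destruction complex built on Axin stops marking β-catenin for degradation, and β-catenin enters the nucleus and joins TCF/LEF factors on target genes. Many of these targets act back on the pathway, some inside the cell, some at the receptors, and some as secreted inhibitors. In the embryo, graded Wnt activity along the body axis takes part in dividing the neural plate into brain and spinal cord.

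The 250 bases before the RefSeq start of *Axin2* and *Sp5* are shown, since *Axin2* was captured most often in CN4 and *Sp5* in XN1 (GRCm38.p6, plus strand, 5′ to 3′). They lie at chr11:108920099-108920348 and chr2:70474673-70474922. Capitals mark CTTTGA and CTTTGT, letters of the TCF/LEF core, or their reverse complements TCAAAG and ACAAAG.
*Axin2*: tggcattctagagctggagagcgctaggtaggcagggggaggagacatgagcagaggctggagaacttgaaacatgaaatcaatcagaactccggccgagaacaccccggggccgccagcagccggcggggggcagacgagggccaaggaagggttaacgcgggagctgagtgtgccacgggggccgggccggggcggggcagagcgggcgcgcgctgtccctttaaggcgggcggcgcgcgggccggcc
*Sp5*: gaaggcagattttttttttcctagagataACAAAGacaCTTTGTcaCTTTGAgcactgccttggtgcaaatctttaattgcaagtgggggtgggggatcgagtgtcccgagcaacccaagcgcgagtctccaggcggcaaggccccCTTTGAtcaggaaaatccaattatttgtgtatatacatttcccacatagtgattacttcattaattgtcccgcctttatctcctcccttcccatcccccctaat
The *Sp5* stretch held 4 matches, which began 221, 212, 204, and 104 bases before the start, and did not overlap each other. The *Axin2* stretch held 0 matches. RefSeq promoter sequences were matched for 6 members, *Axin2*, *Nkd1*, *Sp5*, *Rnf43*, *Dkk1*, and *Wif1*, and those of 2, *Sp5* and *Dkk1* (3 matches), held the letters within 250 bases. Of all 32851 promoter stretches of this length, 27.6% held them. A match is not a binding site, and the absence of these letters says nothing about TCF/LEF at other distances.

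The tables of all reads held 8741 XN4, 14452 XN1, and 18157 CN4 cells, with medians of 5981.5 to 12615 reads per cell. The normalized tables, which give KN1 its values, held 3448 to 3975 cells per line. KN1 stood apart in these tables, with a median of 833 genes per cell compared with 2257 to 2824 in the other lines, and with 7.39 reads per captured gene and cell compared with 2.14 to 3.90. Thinning every cell to 3000 reads left this gap, with 745 genes in KN1 and 1579 to 1767 in the others. The labels call all 4 lines neural stem cells, but only 3 of 10 neural progenitor markers reached 1% of XN4 cells, compared with 9 or 10 in the other lines. The 3 were *Msi1* (17.8%), *Nes* (8.56%), and *Prom1* (9.08%). The *Prom1* share was highest in XN4 at unequal depths, but after thinning XN1 was above XN4, with 6.05% and 4.25%. The neural progenitor factor *Sox2* was captured in 0.561% of XN4 cells, whereas CN4 had it in 85.9%, KN1 in 13.9%, and XN1 in 63.5%. From bulk microarrays, the paper instead reports *Sox2* in XN4 at a level like that of embryonic CNS, with *Sox3* and *Pax6* low. It also lists neurons and glia obtained from XN4. The reason for this difference was not tested. The summed level of the 10 markers was 84.0 reads per 1000000 reads (rpm) in XN4 and 1503 to 6000 in the other lines. *Fabp7* alone gave 4117 rpm in CN4. The 12 connective tissue markers summed to 11475 rpm in XN4 and 105 to 336 in the other lines, and 11 of them reached 1% of XN4 cells. *Col3a1*, captured in 97.7% of XN4 cells, alone gave 5474 rpm. *Thy1* and *Col1a2* went the other way in share, with 0.275% and 6.72% of XN4 cells but 20.2% and 24.0% of XN1 cells. Members in XN4 are hence described for the line as labeled, and the part of this cell identity in them was not tested. Libraries shared 37 to 320 cell indices per pair.

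*Axin2* and *Nkd1* encode feedback inhibitors that act inside the cell, Axin2 as a scaffold of the destruction complex and Nkd1 as an antagonist that binds Dishevelled. *Axin2* lies on chromosome 11 from 108920349 to 108950783 of GRCm38 on the plus strand, and is overlapped by the antisense gene *Gm11670*. Whether counting used the strand is not stated, so reads of such overlapping genes cannot be told apart here or below. *Axin2* transcripts were captured in 38.8% of the CN4 cells (38.1% to 39.5%), 2.01% of the KN1 cells (1.60% to 2.50%), 8.02% of the XN1 cells (7.58% to 8.47%), and 1.5% of the XN4 cells (1.25% to 1.78%). CN4 was thus far above the others, XN1 was second, and the intervals of KN1 and XN4 overlapped. The pooled levels in the normalized tables were 94.9, 17.1, 20.9, and 3.01 rpm in CN4, KN1, XN1, and XN4. CN4 exceeded KN1 by 5.57-fold, XN1 by 4.54-fold, and XN4 by 31.5-fold.

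*Nkd1*, on chromosome 8 from 88521354 to 88594884 on the plus strand and overlapped by *Gm45496*, also had CN4 first and XN1 second. It was captured in 20.8% of the CN4 (20.2% to 21.4%), 1.64% of the KN1 (1.26% to 2.08%), 5.0% of the XN1 (4.65% to 5.36%), and 2.13% of the XN4 cells (1.84% to 2.45%). The levels were 47.5 rpm in CN4, 14.5 in KN1, 11.7 in XN1, and 3.44 in XN4. CN4 was 3.26-fold above KN1, 4.07-fold above XN1, and 13.8-fold above XN4. With capture set at 2 reads, CN4 stayed first for both genes, but XN1 did not stay second for *Nkd1*, with 8.35% in CN4, 1.26% in KN1, 0.955% in XN1, and 1.10% in XN4. For *Axin2* the shares were then 18.2% in CN4, 1.56% in KN1, 1.81% in XN1, and 0.675% in XN4. XN1, which received XAV939, and KN1, which did not, differed little in these levels, with XN1 over KN1 ratios of 1.23 for *Axin2* and 0.803 for *Nkd1*. In the share of cells after thinning, XN1 was above KN1 for both genes, with 5.74% against 1.59% for *Axin2* and 3.16% against 1.34% for *Nkd1*. Over all genes the median of this ratio was 2.36, so a higher share in XN1 was usual.

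*Znrf3* and *Rnf43* encode related membrane ubiquitin ligases that remove Frizzled receptors from the cell surface, and *Lgr5* encodes an R-spondin receptor whose ligands keep these ligases away from Frizzled. *Znrf3*, on chromosome 11 from 5276324 to 5444847 on the minus strand, was captured in 39.7% of the CN4 (39.0% to 40.4%), 20.3% of the KN1 (19.1% to 21.6%), 14.5% of the XN1 (14% to 15.1%), and 14.9% of the XN4 cells (14.2% to 15.7%). The intervals of XN4 and XN1 overlapped at these unequal depths, and KN1 and CN4 lay above them. In level, however, KN1 was highest, with 228 rpm compared with 93.9 in CN4, 38.4 in XN1, and 33.4 in XN4. The reads per captured cell went with this reversal, as KN1 cells with *Znrf3* held 7.77 reads on average and those of CN4 1.7. After thinning, the shares were 17.6% in KN1 (16.3% to 18.9%), 21.5% in CN4 (20.1% to 22.9%), 10.1% in XN1 (9.12% to 11.2%), and 7.08% in XN4 (6.24% to 7.98%), and no intervals overlapped.

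*Lgr5*, on chromosome 10 from 115450311 to 115587780 on the minus strand, is overlapped on the other strand by *A930009A15Rik*. It was captured in 21.4% of the CN4 (20.8% to 22.0%), 9.13% of the KN1 (8.25% to 10.1%), 2.29% of the XN1 (2.05% to 2.55%), and 0.40% of the XN4 cells (0.279% to 0.556%). No 2 of these intervals overlapped, and the order of the lines was the order of the drugs from CHIR99021 to XAV939. The levels were 60.8 rpm in CN4, 109 in KN1, 6.12 in XN1, and 0.265 in XN4, so that KN1 again passed CN4. Captured KN1 cells held 8.31 *Lgr5* reads on average and CN4 cells 1.99. Both measures put the 2 XAV939 lines below KN1 and CN4, with CN4 9.94-fold above XN1 in level. In XN4, the 35 cells with *Lgr5* held 1 read each, and no fold is given over them. *Rnf43*, on chromosome 11 from 87662722 to 87735539 on the plus strand, was rare, in 0.672% of the CN4, 0.252% of the KN1, 0.118% of the XN1, and 0.206% of the XN4 cells. Its CN4 interval (0.558% to 0.802%) lay above those of XN4 and XN1. No cell type known to lack these genes was at hand as a background, so shares under 1% were not read as expression, and ratios over such shares, as for *Wif1* and *Apcdd1* below, compare captured reads only.

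**Figure D1:**
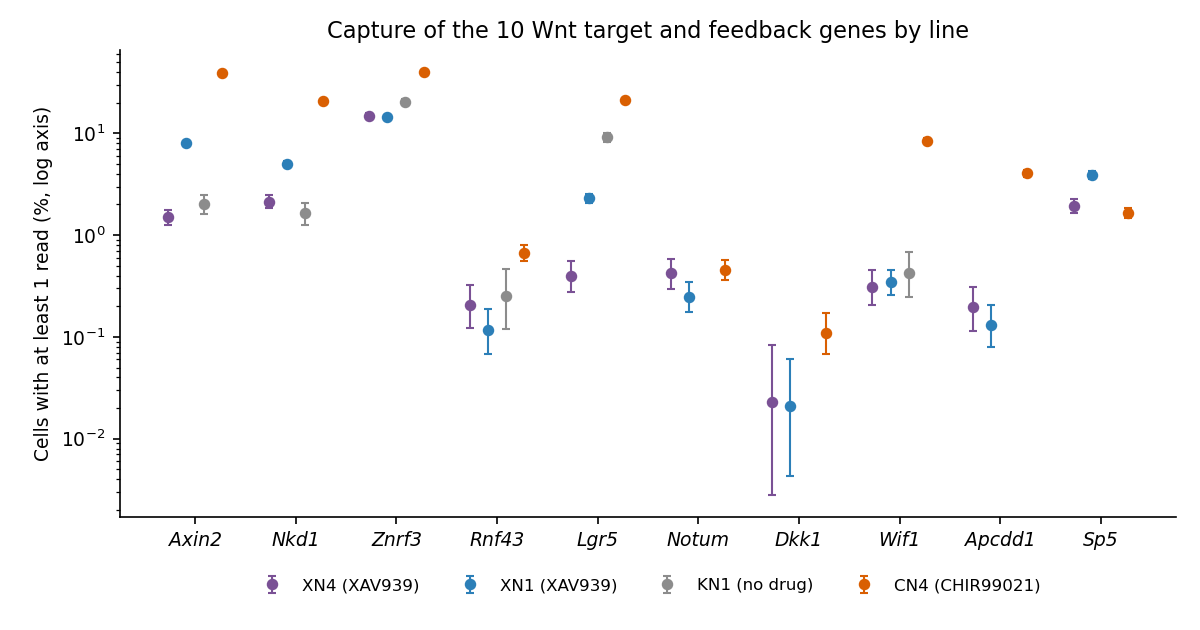
Percent of cells with at least 1 read (log axis) for the 10 members, with exact 95% binomial intervals, in XN4, XN1, and CN4 over the tables of all reads and in KN1 over its normalized table; 4 members were not listed in KN1. CN4 is the uppermost line for *Axin2* (38.8%), *Nkd1* (20.8%), *Znrf3* (39.7%), *Lgr5* (21.4%), *Wif1* (8.50%), and *Apcdd1* (4.03%), whereas XN1 is uppermost for *Sp5* (3.90%).

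*Wif1*, *Notum*, and *Dkk1* encode secreted inhibitors. Wif1 binds Wnt ligands, Notum is an enzyme that removes their lipid, and Dkk1 blocks the coreceptors LRP5 and LRP6. *Apcdd1* encodes a membrane protein that binds Wnt and LRP5. *Wif1*, on chromosome 10 from 121033960 to 121100650 on the plus strand, was captured in 8.50% of the CN4 (8.10% to 8.91%), 0.428% of the KN1 (0.249% to 0.684%), 0.346% of the XN1 (0.257% to 0.456%), and 0.309% of the XN4 cells (0.204% to 0.449%). The intervals of XN4, XN1, and KN1 overlapped, and CN4 stood alone. In level, CN4 had 17.3 rpm, 7.47-fold above the 2.32 rpm of KN1, and XN1 and XN4 had 0.830 and 0.265 rpm.

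*Apcdd1* showed the same picture in the 3 lines where it was listed. It was captured in 732 CN4 cells (4.03%, 3.75% to 4.33%), 19 XN1 cells (0.131%), and 17 XN4 cells (0.194%). The level in the tables of all reads was 5.13 rpm in CN4, 21.7-fold above XN1 and 30.0-fold above XN4. These folds rest on only 22 *Apcdd1* reads in XN1 and 24 in XN4. The KN1 table, whose rarest gene was found in 7 cells, did not list *Apcdd1*. *Notum*, on chromosome 11 from 120653788 to 120661175 on the minus strand and overlapped by the antisense genes *Notumos* and *Myadml2os*, was captured in 0.457% of the CN4, 0.249% of the XN1, and 0.423% of the XN4 cells. XN4 and CN4 overlapped in their intervals. *Dkk1*, on chromosome 19 from 30545863 to 30549665 on the minus strand, was found in 2 XN4, 3 XN1, and 20 CN4 cells, so no ratio is given. Neither gene was listed in KN1. The secreted inhibitors therefore differed among themselves, as *Wif1* was common in CN4 while *Notum* and *Dkk1* stayed under 1% of cells in each line where they were listed.

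*Sp5*, on chromosome 2 from 70474923 to 70477729 on the plus strand, encodes a zinc finger factor that binds the control regions of Wnt targets. It departed from the other members. It was captured in 1.66% of the CN4 (1.48% to 1.85%), 3.90% of the XN1 (3.59% to 4.23%), and 1.93% of the XN4 cells (1.66% to 2.24%), and was not listed in KN1. XN1 was thus above both other lines, while the intervals of XN4 and CN4 overlapped. With capture set at 2 reads, XN4 was above XN1 at these unequal depths, as *Sp5* was in 1.10% of XN4, 0.803% of XN1, and 0.507% of CN4 cells, but in thinned cells XN1 was above XN4, with 0.368% and 0.116%. The levels were 1.87 rpm in CN4, 9.91 in XN1, and 3.01 in XN4, and the CN4 over XN1 ratio was 0.189. This ratio was lower than those of all but 2.13% of the genes tested between these lines. In the tables of all reads the ratio was 0.313, with 2.37 rpm in CN4, 7.56 in XN1, and 2.54 in XN4, and 4.81% of genes lay below it. After thinning, *Sp5* was captured in 2.89% of XN1, 0.635% of XN4, and 0.438% of CN4 cells.

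The 6 pairs of lines were then compared by a rule of size. A gene was called where its rpm differed at least 2-fold, among genes listed in both normalized tables and captured in at least 1% of the cells of either line. A gene can pass this filter through 1 line alone, where it is high, and its direction is then in part set by the filter. *Wif1* passed through CN4 alone, with 7.37% of these CN4 cells, 0.428% of KN1, 0.359% of XN1, and 0.229% of XN4. *Lgr5* was likewise under 1% in XN4 (0.280%) and *Sp5* in CN4 (0.957%). In CN4 over KN1, 5 of the 10 members could be compared. *Axin2*, *Nkd1*, and *Wif1*, 3 of the 5, were at least 2-fold higher in CN4, where 21.4% of the 12126 genes tested were so called, and *Znrf3* was 2-fold lower, where 20.7% were. *Lgr5* had a ratio of 0.556, short of the rule. The median ratio of the members was 3.26, and that of all genes 1.06. In the share of thinned cells, 59.8% of all genes were at least 2-fold higher in CN4, so that 3 of 5 members, again *Axin2*, *Nkd1*, and *Wif1*, was no more than the usual share, and 0 members were 2-fold lower, where 6.14% of genes were. Relative to the median of all genes, 2.42, the ratios were 5.63 for *Axin2*, 3.41 for *Nkd1*, 5.74 for *Wif1*, 0.692 for *Lgr5*, and 0.506 for *Znrf3*. *Axin2*, *Nkd1*, and *Wif1* were hence above the shift shared by all genes, and *Lgr5* and *Znrf3* were below it.

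CN4 over XN1 is free of the low gene number of KN1. There, 5 of 6 members tested, *Axin2*, *Nkd1*, *Lgr5*, *Znrf3*, and *Wif1*, were at least 2-fold higher in CN4, compared with 8.33% of the 12282 genes tested. *Sp5* was lower, compared with 9.29%. The ratios were 20.9 for *Wif1*, 9.94 for *Lgr5*, 4.54 for *Axin2*, 4.07 for *Nkd1*, and 2.45 for *Znrf3*, with a median over the 6 members of 4.30 and a median of all genes of 1.07. These lines came from different derivation experiments. The share of thinned cells gave the same 5 and 1 members, with 7.61% and 8.83% of all genes called.

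Within derivation experiment 4, CN4 over XN4 gave 5 of 6 members tested higher in CN4, where 15.0% of genes were called, and 0 lower, where 18.1% were. Among the 5, *Lgr5* and *Wif1* had only 11 reads each in XN4. These calls, and those of *Lgr5* against XN4 below, compare captured reads near the floor. *Sp5* had a ratio of 0.623. The cell identity of XN4 described above goes with this comparison and cannot be told apart from it. Within derivation experiment 1, XN1 over KN1 gave 0 of 4 members higher, where 23.0% of genes were called, and 2 lower, *Lgr5* with a ratio of 0.0560 and *Znrf3* with 0.169, where 23.9% were. *Axin2* and *Nkd1* were in neither group. The comparisons of XN4 with the others gave 4 of 4 members lower than in KN1 (21.7% of all genes) and 4 of 5 lower than in XN1 (13.8%), the exception being *Znrf3* with an XN4 over XN1 ratio of 0.870. By the share of thinned cells, XN1 over KN1 gave *Axin2* and *Nkd1* as higher, where 57.4% of genes were called, and *Lgr5* as lower, where 7.35% were. XN4 over KN1 gave *Lgr5* and *Znrf3* as lower, 2 of 4 members, where 9.55% of genes were called. XN4 over XN1 gave 0 of 5 members higher, where 14.1% of genes were called, and 4 lower, where 16.1% were. These pairs share lines, and their counts are not independent of each other.

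The tables of all reads, which do not hold KN1, added *Apcdd1* to the members that could be compared. *Apcdd1* and *Wif1* passed the filter of 1% of cells through CN4 alone, so their direction was in part set by it. *Lgr5* was captured in under 1% of XN4 cells. It passed through CN4 alone in CN4 over XN4, and through XN1 alone in XN4 over XN1. The direction of *Lgr5* against XN4 was likewise in part set by the filter, and its calls there compare captured reads near the floor. In CN4 over XN1, 6 of 7 members were higher by rpm, where 9.42% of genes were called, and *Sp5* was lower, where 9.78% were. By the share of cells at their own depth, the counts were again 6 and 1, where 16.8% and 4.95% of genes were called. In CN4 over XN4, 6 of 7 members were higher and 0 lower, where 18.5% and 17.6% of genes were called by rpm. In XN4 over XN1, 4 of 5 members, *Axin2*, *Nkd1*, *Lgr5*, and *Sp5*, were lower in XN4 by either measure, where 16.6% of genes were called by rpm and 9.40% by the share of cells.

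**Figure D2:**
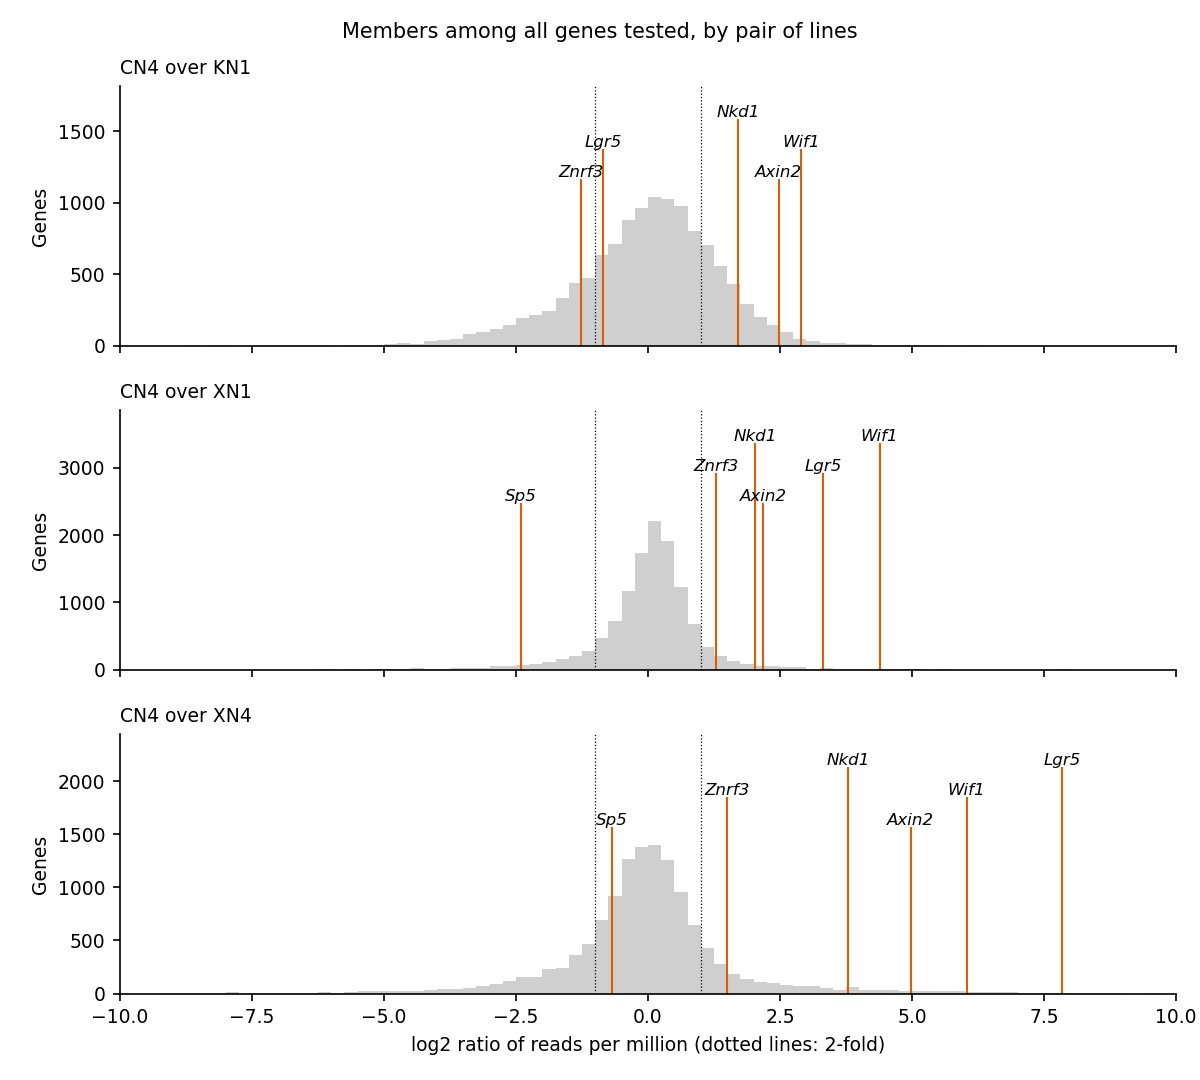
Number of genes tested (y axis) by log2 ratio of rpm (x axis, drawn from -10 to 10) for CN4 over KN1, XN1, and XN4, with the members tested drawn as orange lines and the 2-fold limits dotted. *Axin2*, *Nkd1*, and *Wif1* lie to the right of the upper limit in all 3 panels, *Lgr5* and *Znrf3* only over XN1 and XN4, and *Sp5* lies to the left of the lower limit over XN1.

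Over the 4 normalized tables, 5 members were listed in every line, and 3 of them were highest in CN4 by rpm, where 22.3% of 12083 genes were. *Lgr5* and *Znrf3* were highest in KN1. By the share of thinned cells, 5 of 5 were highest in CN4, where 35.4% of genes were. In the 3 tables of all reads, which leave KN1 out, 7 members reached 1% of cells in a line, and 6 of these, all but *Sp5*, were highest in CN4, where 36.2% of 13784 genes were by rpm and 46.0% by the share of cells.

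**Figure D3:**
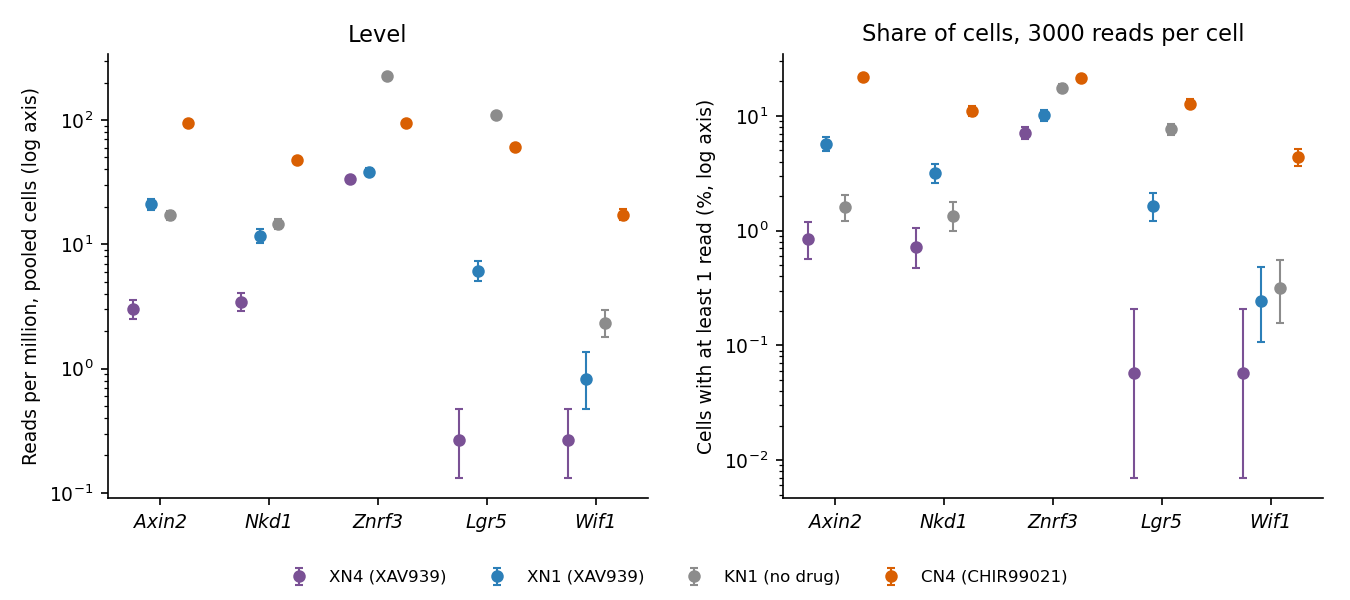
Left, rpm in the pooled cells of the normalized tables with exact Poisson 95% intervals, and right, percent of cells with at least 1 read after thinning to 3000 reads with exact binomial 95% intervals, for the 5 members listed in all 4 tables (log axes). KN1 is above CN4 for *Znrf3* (228 against 93.9 rpm) and *Lgr5* (109 against 60.8 rpm) on the left, and below CN4 on the right (17.6% against 21.5%, and 7.63% against 12.8%). The intervals on the left take each read as independent and are too narrow.

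The frequent members were captured more often in deeper cells, but not equally so. The CN4 cells were divided by total reads into 4 equal parts, whose median reads were 5237, 7912, 10586, and 15039. *Axin2* was captured in 24.3%, 37.1%, 42.5%, and 51.4% of these cells, and *Znrf3* in 24.8%, 36.1%, 44.5%, and 53.4%. *Lgr5* went from 18.9% through 20.0% and 20.7% to 26.0%, a smaller gain than that of *Axin2*. *Wif1* went from 4.93% to 12.3%, *Nkd1* from 13% to 30.0%, and *Sp5* from 0.529% to 3.53%. *Rnf43*, which was rare, did not rise, with 0.859%, 0.529%, 0.573%, and 0.727%. Even in the shallowest part of CN4, *Axin2* was thus more frequent than in the deepest part of XN4, where 2.97% of cells with a median of 28609 reads had it, or of XN1, with 11.3% at 9446 reads. In KN1, *Lgr5* was in 3.82% of the shallowest and 15.3% of the deepest cells.

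With every cell thinned to 3000 reads, the number of members captured per cell was counted. In CN4, 56.1% of 3198 cells had at least 1 member (54.3% to 57.8%), whereas KN1 had 26.5% (25.1% to 28.0%), XN1 22.1% (20.7% to 23.5%), and XN4 9.42% (8.46% to 10.4%). The tables counted list 9 members in CN4 and 6 in KN1, and thinned shares of all genes had a median CN4 over KN1 ratio of 2.42, so a higher share in CN4 was usual. With capture set at 2 reads, CN4 had 17.1% (15.8% to 18.5%) and KN1 19.1% (17.9% to 20.5%), intervals that overlapped. At least 2 members were captured in 15.4% of CN4 cells, and in 2.02% of KN1, 1.72% of XN1, and 0.0867% of XN4 cells. At this depth, 0 of 3198 CN4 cells had 5 members, with an exact upper limit of 0.115%. At their own depth, 74.8% of the CN4 cells of the normalized table had at least 1 member and 10.8% had at least 3.

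**Figure D4:**
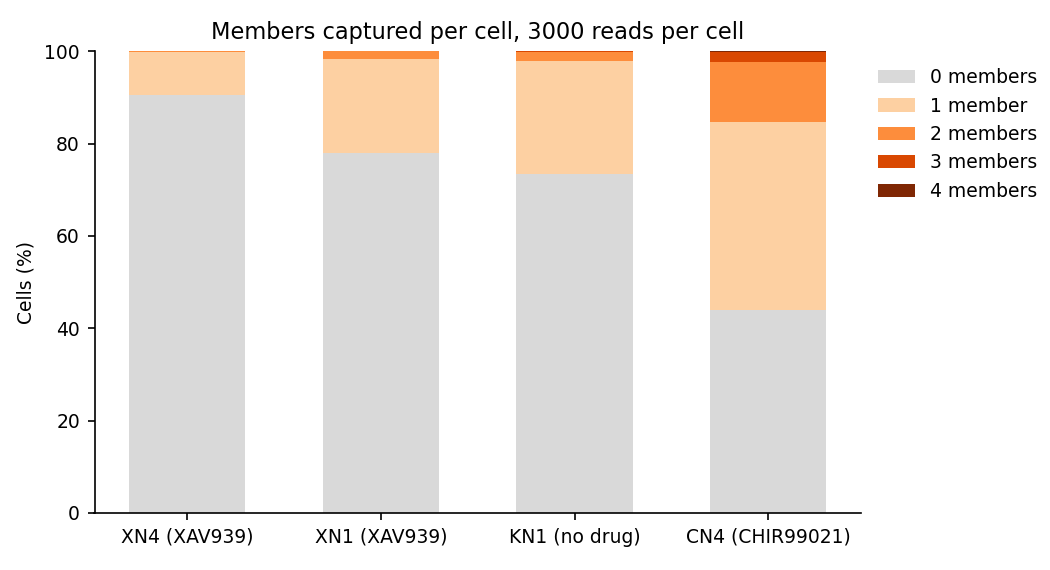
Percent of cells (y axis, from 0) with 0, 1, 2, 3, or 4 of the 10 members captured, for the 4 lines, each cell thinned to 3000 reads. The cells without a member make up 43.9% in CN4, 73.5% in KN1, 77.9% in XN1, and 90.6% in XN4.

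Whether members were captured in the same cells was examined within each line. The cells with both transcripts of a pair were counted and compared with the number expected from the separate capture rates within 20 strata of total reads, for pairs with at least 5 expected cells. In CN4, 34 such pairs gave 14329 joint captures against 14082 expected, a ratio of 1.02 (1.00 to 1.03). These are sums over pairs, in which a cell with several members counts more than once. The intervals of such sums, here and for the other lines, take the counts as independent. The common pairs were near 1, with 3035 cells against 3010 for *Axin2* and *Znrf3*, 1626 against 1591 for *Axin2* and *Nkd1*, and 1643 against 1633 for *Nkd1* and *Znrf3*. The members captured most often were therefore found together about as often as their separate rates give. The ratios over the pairs were 1.01 for KN1 (0.849 to 1.19), 1.01 for XN1 (0.933 to 1.09), and 1.07 for XN4 (0.899 to 1.26). In sparse counts, ratios this near 1 are a description of capture and no finding.

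Among the CN4 pairs, 3 had intervals above 1 and 1 an interval below it. *Lgr5* and *Wif1* were in 445 cells together against 347 expected, a ratio of 1.28 (1.17 to 1.41). *Lgr5* and *Rnf43* had 39 cells against 26.5 (1.47, 1.04 to 2.01), and *Nkd1* and *Lgr5* had 905 against 845 (1.07, 1.00 to 1.14). *Sp5* and *Lgr5* had 53 against 71.4 (0.743, 0.556 to 0.971). The 4 pairs all include *Lgr5*, and with 34 pairs examined, intervals of this kind miss 1 in some pairs by counting error.

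The genes captured in the same CN4 cells as each frequent member were ranked by the phi coefficient, a correlation of presence and absence, within the same strata of 18157 cells and among 9977 genes. Of the 5 members examined, *Lgr5* and *Wif1* had the highest coefficients. The genes most like *Lgr5* were *Dll1*, a Notch ligand, with a phi of 0.187, *Nrp2*, a neuropilin receptor, with 0.172, and *Prss23*, a serine protease, with 0.163. *Lgr5* was captured in 41.7% of the 2175 cells with *Dll1* (39.7% to 43.9%) and in 18.6% of those without it (18% to 19.2%), and the cells with *Dll1* were not deeper (medians, 8197 and 9318 reads). The gene most like *Wif1* was *Foxa2*, a factor of the floor plate, with a phi of 0.108. *Wif1* was captured in 22.3% of the 1022 cells with *Foxa2* and in 7.67% of the others, with medians of 11679 and 9038 reads. *Sod3*, an extracellular superoxide dismutase, and *Ntn4*, a netrin, followed with 0.0666 and 0.0653.

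The coefficients were smaller for the other members. *Axin2* was most like *Spry1*, *Spry4*, and *Spry2*, with phi of 0.0769, 0.0712, and 0.0669. The Sprouty genes encode feedback inhibitors of FGF receptor signaling. *Nkd1* was most like *Igfbp5*, *Sox3*, and *Prss23* (0.0653, 0.0645, and 0.0617), and *Znrf3* was most like *Akap17b*, *Rfx4*, and *Camk2n1* (0.0664, 0.0599, and 0.0590). No member was among the 3 genes most like another member, and the nearest was *Lgr5*, at rank 16 for *Wif1* with a phi of 0.0478. All points of these coefficients are cells of 1 library.

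**Figure D5:**
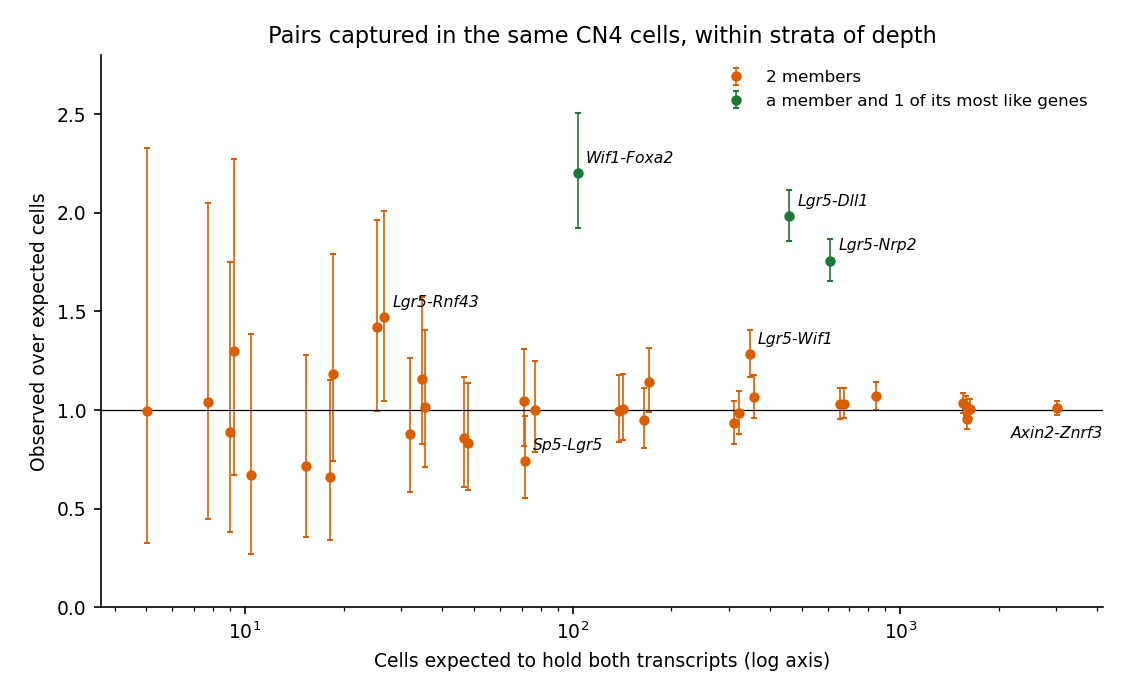
Observed over expected cells holding both transcripts (y axis) against the expected number (x axis, log) in CN4, with exact Poisson 95% intervals, for the 34 pairs of members in orange and for 3 pairs of a member with a gene ranked most like it in green. Pairs of members lie about 1, whereas *Lgr5* with *Dll1* reaches 1.98, *Lgr5* with *Nrp2* 1.76, and *Wif1* with *Foxa2* 2.20; the green pairs were chosen for their likeness.

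The members were also compared between dividing cells, in which at least 2 of *Hmgb2*, *Mki67*, and *Top2a* were captured, and cells with none of the 3, after thinning. In CN4, *Axin2* was captured in 21.5% of 1746 dividing cells (19.6% to 23.5%) and 23.4% of 841 others (20.6% to 26.4%). *Lgr5* was in 13% and 12.2%, and *Znrf3* in 20.7% and 22.2%, so that the intervals overlapped for each of these genes. In XN1, *Axin2* was in 5.80% of 828 dividing and 5.74% of 1847 other cells. In KN1, *Lgr5* was captured in 10.8% of 848 dividing cells (8.84% to 13.1%) and 5.26% of 1634 others (4.23% to 6.46%), intervals that did not overlap. With all 3 markers required, the dividing share was 9.36% (5.73% to 14.2%), which overlapped that of the others. The dividing KN1 cells also had more genes, a median of 885.5 compared with 678, and the part of this in the *Lgr5* difference was not tested.

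The other genes of the pathway, 58 in 4 lists, differed in both directions between CN4 and KN1. By rpm, the 5 antagonists called were higher and the 2 genes called among R-spondins and their receptors were lower. By thinned shares, 0 of these 2 were lower, and some antagonists passed the filter through CN4 alone, as given below. In CN4 over KN1, 22 could be compared by rpm, of which 9 were at least 2-fold higher in CN4 and 5 lower, where 21.4% and 20.7% of all genes were. By the share of thinned cells, 13 were higher and 1 lower, where 59.8% and 6.14% of all genes were. Of the 15 other targets and feedback genes, 6 were tested, and by rpm 3 were higher and 1 was lower. By thinned shares 5 were higher and 1 lower, against 59.8% and 6.14% of all genes. The genes higher by rpm were *Gbx2*, a hindbrain boundary factor, with a ratio of 8.65, *Ccnd1*, a cell cycle cyclin, with 4.81, and *Myc* with 4.30. *Gbx2* passed the filter through CN4 alone, with 0.805% of KN1 cells. The lower gene, named after its value was seen, was *T*, the mesoderm factor Brachyury, with 10.3 rpm in KN1 and 0.741 in CN4, a ratio of 0.0716. *T* passed the filter through KN1 alone, with 1.51% of KN1 and 0.457% of all CN4 cells. Its direction was in part set by the filter, and its ratio compares captured reads only. *Sp8*, a transcription factor gene also named after its values were seen, could not be compared by this rule because the normalized CN4 table did not list it, but it was in 14.1% of KN1 cells (134.7 rpm) and in 2 of 18157 CN4 cells. *Ccnd1* had 1344 rpm in CN4, 279 in KN1, 2499 in XN1, and 221 in XN4, so the XAV939 line XN1 was highest. The TCF/LEF genes *Lef1* and *Tcf7*, named here after their values were seen, were also most frequent in XN1, in 5.42% and 9.59% of cells compared with 0.898% and 4.51% in CN4.

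Of the 16 secreted and membrane antagonists, 7 were tested, 5 were higher in CN4 than in KN1, and 0 were lower, against the same 21.4% and 20.7% of all genes. By thinned shares the count was again 5 of 7, against 59.8%. The 5 by rpm were *Sfrp2* (11.1-fold) and *Frzb* (3.96-fold), which bind Wnt ligands, *Tpbg* (8.59-fold) and *Kremen1* (3.14-fold), which act at the receptors, and *Draxin* (7.17-fold), a secreted guidance cue that inhibits Wnt. *Sfrp2*, *Frzb*, and *Tpbg* passed the filter through CN4 alone, with 0.579%, 0.377%, and 0.805% of KN1 cells. *Sfrp2* was captured in 23.3% of the CN4, 0.579% of the KN1, 2.39% of the XN1, and 3.62% of the XN4 cells. *Draxin* was captured in 18.1% of CN4 cells and in 0.332% to 1.1% of the others. Of the R-spondins and their other receptors, 2 of 6 were tested and both were lower in CN4 by rpm (20.7% of all genes), but 0 of 2 were lower by thinned shares. *Lgr4*, which encodes a receptor related to Lgr5, had 64.8 rpm in KN1 and 20.8 in CN4, a ratio of 0.322. It was captured in 6.77% of KN1 and 11.6% of CN4 cells at unequal depths, but after thinning in 5.61% and 5.78%, which were nearly equal. *Lgr4* varied little in share, from 6.77% to 12.5% over the 4 lines at their own depths.

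Of the 21 Wnt ligands and secretion genes, 7 were tested, 1 was higher in CN4 and 2 were lower by rpm, against 21.4% and 20.7% of all genes. By thinned shares 3 were higher and 0 lower, against 59.8% and 6.14%. *Wnt4* was 14-fold higher, with captures in 9.13% of CN4 and 0.352% of KN1 cells, so that it passed the filter through CN4 alone. *Wnt5b* and *Wnt7a* had ratios of 0.435 and 0.496 by rpm, and 1.11 and 1.19 by thinned shares. The median of all genes by thinned shares was 2.42, so both stayed below the shift shared by all genes. In CN4 over XN1, 22 genes of the 4 lists were tested, with 6 higher and 4 lower in CN4, where 8.33% and 9.29% of all genes were called, and their median ratio was 1.05, compared with 4.30 for the members and 1.07 for all genes. Of the antagonists, 5 of 8 tested were higher in CN4 and 0 were lower, with a median ratio of 5.22. Among the 5, *Dkk3* and *Sfrp1* were captured in only 0.706% and 0.311% of all XN1 cells. Their direction, and with it the count and the median, was in part set by the filter. In CN4 over XN4, 3 of 8 antagonists were higher and 2 lower, with a median of 1.38, where 15.0% and 18.1% of all genes were called. *Draxin*, among those higher, was in only 0.332% of all XN4 cells and passed the filter through CN4 alone.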

How the data were processed

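Single-cell libraries of XN4, XN1, KN1, and CN4, 1 per line, were made with the BD Rhapsody WTA kit. For XN4, XN1, and CN4, the deposited values are counts of reads per gene and cell, not molecular identifiers. Per the file headers they were made with pipeline version 1.12.1 and GENCODE M19 on GRCm38, with intronic reads counted; the strand setting is not given in the sources used here. A second deposited table of each line holds values on a natural log scale, ln(1 + 10000 × reads / total), which the authors made with Seurat 4.3.0 from randomly drawn cells once the genes of ribosomal proteins and mitochondria had been dropped. Converted to reads, 100% of the values were whole within 0.01, and 0 values differed where a line had both tables. For KN1 this second table was the one analysed.

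Capture means at least 1 read of a gene in a cell. Shares of cells have exact (Clopper-Pearson) 95% binomial intervals, and rpm (reads pooled over cells, per 1000000 reads of the same table) exact Poisson intervals. Cells were thinned to 3000 reads by random draws, and shallower cells were dropped (250 in CN4, 464 in KN1, 648 in XN1, and 465 in XN4). Doublets were neither called nor removed. The functions were tested on simulated data. Python 3.11.15, numpy 2.4.6, and scipy 1.17.1 were used. Gene positions are from GENCODE M21 on GRCm38; those of *Apcdd1* are not reported here.

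The members and lists were chosen with earlier results of these data known. Named beside the members were, from each of the other 4 lists, up to 5 genes at least 2-fold different in CN4 over KN1 and captured in at least 5% of the cells of either line. For each member captured in at least 5% of the cells of a line, the 3 genes with the highest phi were named in the line that captured it most often, which was CN4 for each. Alternatives were another capture limit, thinning, another mean, filter, fold, or centering, other strata, and other tables.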

Additional observations from a re-analysis of the deposited data

How the results depend on the processing

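No paired analysis was possible because each line was 1 library and the result comes from no test. Ratios against KN1 changed with the measure used, and the cause was not tested. By the share of thinned cells, the *Znrf3* log2 ratio of CN4 over KN1 turned from -1.28 to 0.29. The median of all genes on this measure was 1.27, so *Znrf3* stayed below the shift shared by all genes. Thinned shares moved the members lower in CN4 than in KN1 from 1 to 0, also with the ratio taken over the median of all genes (an alternative added after seeing the data), and those of XN1 over KN1 from 0 higher and 2 lower to 2 higher and 1 lower. Members lower in XN4 than in KN1 went from 4 to 2. Taken over the median of all genes, thinned shares gave the counts by rpm again in these last pairs, 0 higher and 2 lower in XN1 over KN1 and 4 lower in XN4 over KN1. For the other Wnt genes, thinned shares gave 1 of 22 lower in CN4 over KN1 (from 5), where 6.14% of all genes were. In XN1 over KN1, 15 of 20 were higher and 1 lower (from 8 and 4), where 57.4% and 7.35% of all genes were. In XN4 over KN1, 7 of 18 were higher and 1 lower (from 4 and 6), where 53.2% and 9.55% of all genes were. These settings change depth and measure together; thinning alone left the rpm of *Znrf3* at 222 in KN1 (from 228) and 96.5 in CN4 (from 93.9). A filter of 5% of cells gave 2 members lower in XN4 over KN1 (from 4), 1 lower in XN4 over XN1 (from 4), and 0 lower in CN4 over XN1 (from 1), with fewer genes tested. A fold of 3 left 0 members lower in CN4 over KN1. The counts at 5% of cells, at a fold of 3, and over the median of all genes have no share of all genes beside them.

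Members highest in CN4 numbered 3 of 5 by rpm (22.3% of all genes) and 5 of 5 by thinned shares (35.4%). In the 3 tables without KN1 (added after seeing the data) they were 6 of 7 with the 1% filter, where 36.2% of genes were by rpm. Without this filter the count was 9 of 10, for which no share of all genes was computed. It includes *Rnf43*, *Notum*, and *Dkk1*, each under 1% of cells in every line that listed it. The shares of *Notum* and *Dkk1* in CN4 and XN4 have overlapping intervals. In the normalized values *Notum* was higher in XN4, with 0.915 rpm against 0.479 in CN4, again with overlapping intervals. The cells with at least 1 member were 74.8% in CN4, 30.0% in KN1, 29.7% in XN1, and 19% in XN4 at their own depth. In thinned cells with at least 2 reads per gene they were 17.1%, 19.1%, 3.22%, and 2.74%, with overlapping intervals in CN4 and KN1. Without strata, co-capture ratios rose to 1.09 in CN4, 1.21 in KN1, 1.11 in XN1, and 1.55 in XN4, and at least 2 reads gave 1.06 in CN4. The median ratio of dividing to other XN4 cells, over 4 members of which *Axin2* rests on 3 dividing cells, went from 1.58 to 2.42 at their own depth. There the dividing XN4 cells had a median of 3561 genes and the others 1893, and the part of this gap in the ratio was not tested. Of 144 recomputed values of the comparisons, 114 stayed within 1.5 times or within their interval. Of 365 recomputed values of single genes, 256 did so, 108 moved further, 34 of them with capture at 2 reads, and 1 value past 2-fold changed sign (*Znrf3*, above). Among ratios under 2-fold by rpm, the sign also changed by thinned shares for *Lgr5* in CN4 over KN1 (log2, -0.85 to 0.74) and *Nkd1* in XN1 over KN1 (-0.32 to 1.24). The medians of all genes by thinned shares were 1.27 and 1.24 in these pairs, so *Lgr5* stayed below its median and *Nkd1* was about equal to it.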
